A study of Saccharomyces cerevisiae with 8 samples.

Results

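The secretory pathway genes described here encode the machinery that carries proteins into the endoplasmic reticulum (ER), moves them between the ER and the Golgi, and delivers them to the cell surface. The rule takes genes by symbol: all symbols made of SEC and a number, plus named genes. The named genes are for coat proteins, signal recognition particle (SRP) subunits, GTPases, SNAREs and tethers. Measured signals enter the rule only in the choice among several probe sets of a gene. The members were, however, chosen with earlier results of these data known. The rule found 82 probe sets for 62 genes, among 5656 genes that a single-gene probe set measured. Where a gene had several, the probe set with the highest mean over all arrays stood for it. Of the 62 genes, 61 passed the filter on low signals, and SEC2, for the exchange factor of the exocytic GTPase Sec4, did not. No promoter or protein sequences were used here.

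The study compared a stb3-null strain of Saccharomyces cerevisiae with its parent BY4742, a haploid laboratory strain of mating type alpha, here called wild type. Stb3 recognises the ribosomal RNA processing element, a motif found before many ribosome biogenesis genes. The 8 Affymetrix arrays form 4 groups of 2: stb3-null 10 min after addition of 2% glucose, stb3-null after 3 days in YPD (a rich medium), wild type 10 min after glucose, and wild type after 3 days in YPD. All cells, those given glucose included, had grown for 3 days in YPD, and the question was how expression 10 min after glucose depends on STB3.

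Proteins enter the ER either during their synthesis, when SRP brings the ribosome to its receptor and the Sec61 pore, or after synthesis, through the pore together with Sec62, Sec63, Sec66 and Sec72. Vesicles coated with COPII then leave the ER for the Golgi, and vesicles coated with COPI return. Rab and Arf GTPases, tethers and SNAREs direct docking and fusion, and the exocyst tethers vesicles to the plasma membrane where the bud grows. Growing yeast needs this pathway to enlarge its surface.

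Values are log2 signals, so that a difference of 1 is a doubling, and each is given per array in the order replicate A, replicate B. STB3 itself had signals of 2.5 to 3.3 on the stb3-null arrays, against 7.62 to 9.23 on the wild-type arrays, which fits the labels. Replicates were closer in stb3-null: over the 61 tested members the standard deviation of A minus B was 0.258 after glucose and 0.278 at 3 days, against 0.432 and 0.455 in wild type. Whether replicates came from separate cultures is not stated in the labels. Each p-value therefore reflects array-to-array spread, possibly only technical. Changes were tested with limma over 5343 genes, and a gene was called to rise or fall at a Benjamini-Hochberg adjusted p below 0.05. For each gene limma used 1 estimate of spread over all 8 arrays. The SE of a glucose response is therefore the same in both strains, although wild-type replicates differed more. A call in 1 strain and not in the other is thus no evidence of a difference. Array signals do not show whether the RNA of the cell as a whole changed.

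After 10 min of glucose, many secretory genes rose in both strains. Among the roles of the members, the largest medians in both strains were those of SRP with its receptor and of the ER translocon. Each of these roles holds few genes. In stb3-null, 22 of the 61 members rose (36.1%) and 2 fell, where 28% of all genes tested rose and 11.6% fell. The 24 members called in either direction were thus about the same share as among all genes (39.5%), with more rises and fewer falls. In wild type, 35 members rose (57.4%) and 1 fell, where 32.3% of all genes rose and 17.6% fell, so that 36 members were called beside 49.9% of all genes. At an unadjusted p below 0.05 there were 34 members in stb3-null (48.9% of all genes) and 41 in wild type (56.8% of all genes). The median member changed by 0.51 in stb3-null and 0.76 in wild type, beside 0.26 in stb3-null and 0.22 in wild type over all genes. Of the members called higher, 20 were shared, which is 32.8% of the 61 members, beside 23.9% of all genes. These 20 were 90.9% of the stb3-null list and 57.1% of the wild-type list. Among all genes, 1277 rose in both strains, of 1494 that rose in stb3-null and 1728 that rose in wild type. For 37 members, all 4 glucose arrays lay above all 4 arrays at 3 days (60.7%, against 36.5% of all genes), and for 2 members, SEC15 and SEC16, all lay below (18.2% of all genes).

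Counts in each direction moved with the scaling between arrays. The counts below lack the shares of all genes called under the same settings. They show only how far calls depend on the processing, not how members compare with other genes. When each array was set to a common trimmed mean, which moved the median of all genes to -0.25 in stb3-null and -0.27 in wild type, 9 members rose and 8 fell in stb3-null and 14 rose and 7 fell in wild type. Quantile normalization gave 14 and 3 in stb3-null and 20 and 1 in wild type. As deposited and under the 3 other scalings, the median member stayed above the median gene. The margin was 0.24 to 0.26 in stb3-null and 0.42 to 0.55 in wild type. Median centring and the common trimmed mean shift all genes of an array alike, so they could hardly change it. Quantile normalization could, and gave 0.24 in stb3-null and 0.42 in wild type, against 0.255 and 0.54 as deposited. In stb3-null the count of rises was 8 without glucose replicate B, 13 without glucose replicate A, 11 without 3 days replicate A and 9 without 3 days replicate B, and 26 without any 1 wild-type array. In wild type it ran from 25 to 29 with 1 array left out. The order of the strains was not fixed: with array weights 35 members rose in stb3-null and 21 in wild type, and with only the groups compared 34 in stb3-null and 19 in wild type.

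**Figure D1:**
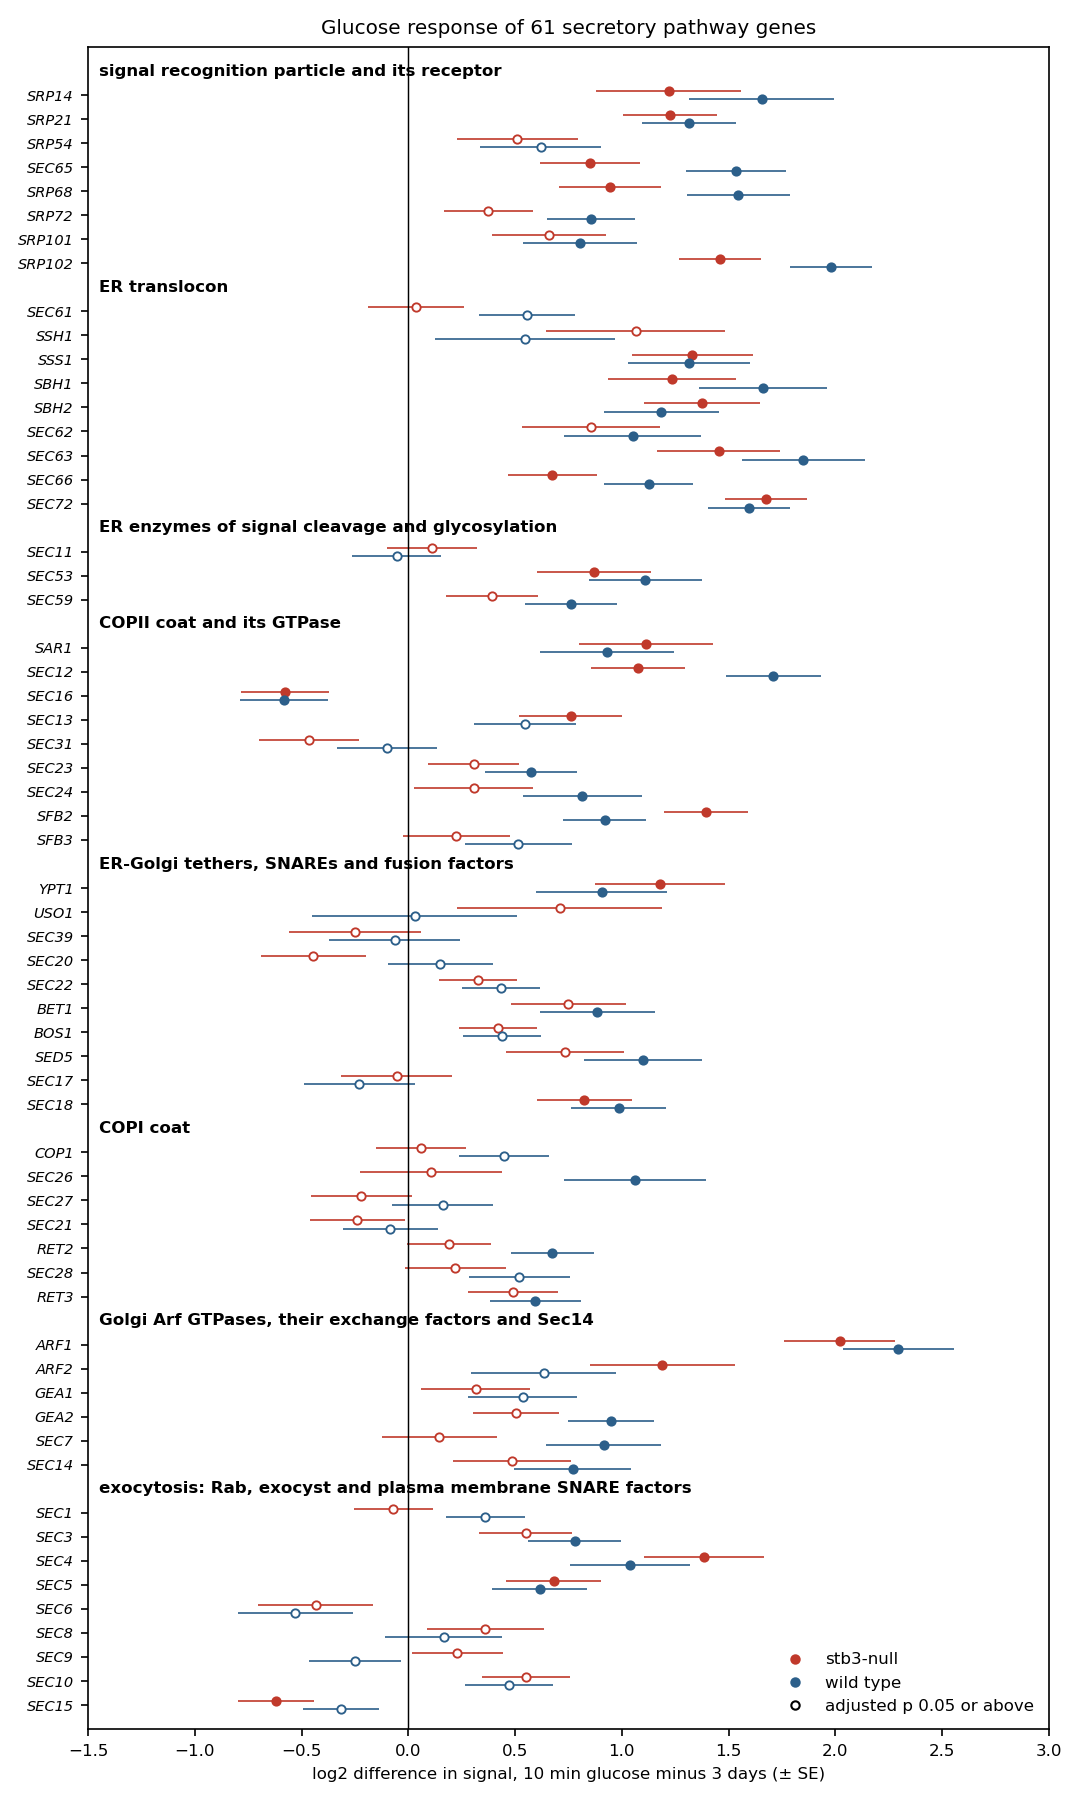
Log2 difference in signal (10 min glucose minus 3 days, ± SE from limma, 2 arrays per group) for the 61 tested members, grouped by role, in stb3-null (red, upper point) and wild type (blue, lower point). Filled points have an adjusted p below 0.05; those of SRP and the translocon lie to the right, up to 1.98, and SEC16 lies at -0.58 in stb3-null and -0.59 in wild type.

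On the deposited scale all genes of SRP and its receptor had positive differences, as did 3334 of all 5343 genes in stb3-null and 3145 in wild type. In stb3-null, 5 of 8 rose with a median of 0.90, beside 28% of all genes. In wild type 7 of 8 rose with a median of 1.43, beside 32.3% of all genes. With a common trimmed mean 2 of the 8 rose in stb3-null and 5 in wild type (the share of all genes under it is not given). The gene of the receptor's membrane-anchored beta subunit (YKL154W) had signals of 8.54 and 8.75 in stb3-null after glucose, against 7.28 and 7.09 at 3 days. The wild-type signals were 8.47 and 8.66 after glucose, against 6.68 and 6.49 at 3 days. The groups were far apart in both strains, and the gene rose by 1.46 in stb3-null (SE 0.19, adjusted p = 5.53e-04, 2.75-fold) and by 1.98 in wild type (SE 0.19, adjusted p = 5.25e-05, 3.94-fold).

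The particle's own subunits followed. SRP14 rose by 1.22 in stb3-null and 1.65 in wild type, and SRP21 by 1.23 in stb3-null and 1.31 in wild type, both for subunits of the Alu-like end of the particle that slows translation. SEC65, the yeast counterpart of mammalian SRP19, rose by 0.85 in stb3-null and 1.53 in wild type, and SRP68 by 0.94 in stb3-null and 1.54 in wild type. SRP72, the partner of SRP68, was at 0.38 in stb3-null (adjusted p = 0.176) and rose by 0.86 in wild type. The gene of the alpha subunit of the receptor (YDR292C) was at 0.66 in stb3-null (adjusted p = 0.0751) and rose by 0.81 in wild type. SRP54, for the GTPase subunit that binds the signal sequence, passed in neither strain, at 0.51 in stb3-null and 0.62 in wild type (adjusted p = 0.181 and 0.0966). The receptor beta subunit gene and SRP21 stayed called in both strains under all 19 other settings tried (the processing changed, or 1 array left out).

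Most translocon genes rose, but those for the pores themselves did not pass. In stb3-null 6 of 9 rose (median 1.24), beside 28% of all genes, and in wild type 7 of 9 (median 1.19), beside 32.3%. With a common trimmed mean 4 rose in stb3-null and 6 in wild type (again with no share of all genes given). SEC72, for a subunit of the Sec62-Sec63 complex of post-translational import, had signals of 8.23 and 8.54 in stb3-null after glucose, against 6.68 and 6.74 at 3 days. Its wild-type signals were 8.78 and 8.77 after glucose, against 7.06 and 7.3 at 3 days. It rose by 1.68 in stb3-null (SE 0.19, adjusted p = 3.08e-04, 3.19-fold), second there among members to ARF1, and by 1.60 in wild type (SE 0.19, adjusted p = 1.61e-04, 3.02-fold).

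SEC63, for the J-domain protein that recruits the ER chaperone Kar2 to the pore, had 6.64 and 7.31 in stb3-null after glucose, against 5.36 and 5.68 at 3 days. On wild-type arrays it had 7.01 and 7.46 after glucose, against 5.59 and 5.18 at 3 days. It rose by 1.46 in stb3-null (adjusted p = 0.00413) and 1.85 in wild type (adjusted p = 6.77e-04). Its signals at 3 days lay below 5.80, the filter level, so the size of its rise is uncertain, and with a pseudocount of 20% of the mean trimmed mean it was 0.60 in stb3-null and 0.78 in wild type. Without stb3-null glucose replicate B its rise there was 1.12 and did not pass (adjusted p = 0.0518). SEC66, of the same complex, rose by 0.68 in stb3-null and 1.13 in wild type. SEC62 was at 0.86 in stb3-null (adjusted p = 0.0599) and rose by 1.05 in wild type.

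The small subunits of both pores rose. SSS1, for the gamma subunit that both pores share, rose by 1.33 in stb3-null and 1.31 in wild type. SBH1, for the beta subunit of the Sec61 pore, had 9.71 and 10.14 in stb3-null after glucose, against 8.39 and 8.99 at 3 days, and 10.32 and 10.33 on wild-type glucose arrays, against 8.99 and 8.34 at 3 days. It rose by 1.24 in stb3-null and 1.66 in wild type (adjusted p = 0.0105 and 0.00159). SBH2, the beta subunit gene of the Ssh1 pore, had 12.18 and 11.99 in stb3-null after glucose, against 10.91 and 10.51 at 3 days. In wild type it had 11.68 and 11.98 after glucose, against 10.48 and 10.81 at 3 days, and it rose by 1.38 in stb3-null and 1.19 in wild type (adjusted p = 0.00393 and 0.00540).

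The pore genes did not pass. SEC61 had 9.59 and 9.46 in stb3-null after glucose, against 9.62 and 9.36 at 3 days, a difference of 0.04 (adjusted p = 0.913). Wild type had 9.97 and 10.18 after glucose, against 9.62 and 9.42 at 3 days, a difference of 0.56 (adjusted p = 0.0636). The stb3-null groups of SEC61 overlapped and the wild-type groups did not. SSH1, for the other pore, had 10.26 and 10.15 in stb3-null after glucose, against 8.89 and 9.39 at 3 days, a difference of 1.07 (SE 0.42, adjusted p = 0.0694). In wild type SSH1 had 8.99 and 10.52 after glucose, against 9.23 and 9.19 at 3 days, and replicate A lay below both arrays at 3 days while B lay above (adjusted p = 0.306).

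Of the ER enzymes, SEC53, for the phosphomannomutase that makes mannose-1-phosphate for glycosylation, rose by 0.87 in stb3-null and 1.11 in wild type. SEC59, for dolichol kinase, was at 0.39 in stb3-null (adjusted p = 0.177) and rose by 0.76 in wild type. SEC11, for the catalytic subunit of signal peptidase, was among the flattest members, with signals of 9.25 and 9.33 in stb3-null after glucose, against 9.33 and 9.03 at 3 days. In wild type it had 9.21 and 9.21 after glucose, against 9.33 and 9.2 at 3 days.

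**Figure D2:**
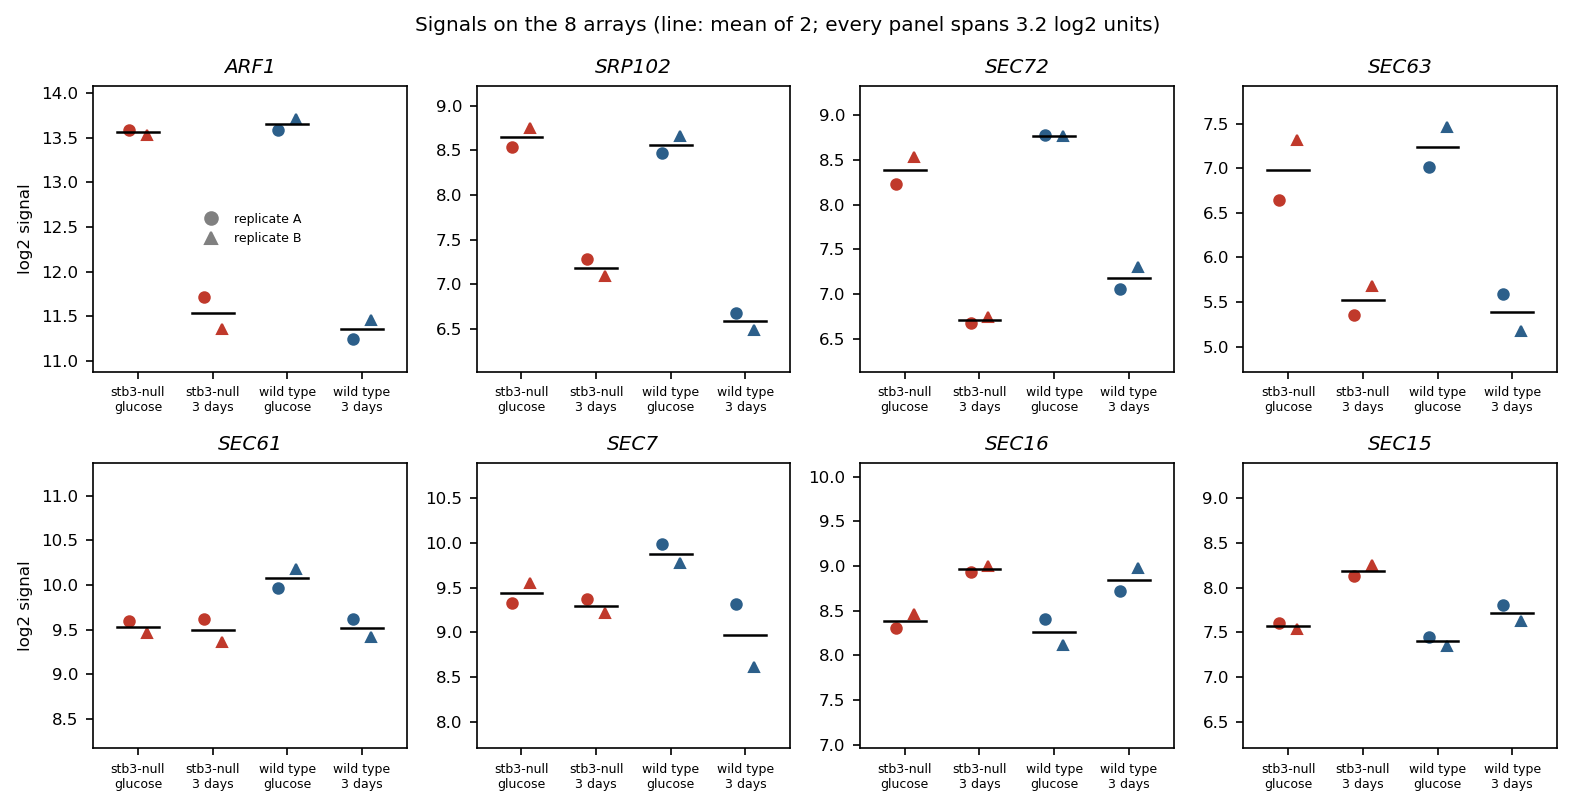
Log2 signals of 8 members on each array (circle: replicate A, triangle: replicate B, line: mean of 2) in stb3-null after glucose, stb3-null at 3 days, wild type after glucose and wild type at 3 days. ARF1, the SRP receptor beta subunit gene, SEC72 and SEC63 have all glucose arrays above all arrays at 3 days, SEC16 and SEC15 have them all below, and SEC61 and SEC7 have separate groups in wild type and overlapping ones in stb3-null.

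Of the 9 COPII coat genes, 4 rose and 1 fell in stb3-null, and 5 rose and 1 fell in wild type. Among all genes 28% rose and 11.6% fell in stb3-null, and 32.3% rose and 17.6% fell in wild type. With so few genes, nothing is read from these counts. SEC12, for the exchange factor that starts coat assembly by loading Sar1 with GTP, rose by 1.08 in stb3-null (adjusted p = 0.00501) and 1.71 in wild type (adjusted p = 2.33e-04, 3.27-fold). SAR1, for that GTPase, rose by 1.11 in stb3-null and 0.93 in wild type. SEC13, of the outer cage, rose by 0.76 in stb3-null and was at 0.55 in wild type (adjusted p = 0.0839), whereas its cage partner SEC31 was at -0.47 in stb3-null and -0.10 in wild type (adjusted p = 0.142 and 0.745). SEC23, of the inner coat, was at 0.31 in stb3-null (adjusted p = 0.28) and rose by 0.57 in wild type, where it passed in 4 of 19 other settings.

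SEC16, for the scaffold of ER exit sites, was the member called lower in both strains. It had 8.31 and 8.46 in stb3-null after glucose, against 8.93 and 9 at 3 days. In wild type it had 8.41 and 8.12 after glucose, against 8.72 and 8.98 at 3 days. The groups did not overlap, and it fell by 0.58 in stb3-null (SE 0.21, adjusted p = 0.0487) and by 0.59 in wild type (SE 0.21, adjusted p = 0.0388). Both calls lay close to the threshold, and it passed in 11 of 19 other settings in stb3-null and 9 of 19 in wild type. Of its 9 probe sets, 8 were lower after glucose in stb3-null and 6 in wild type. Of the 5 with a mean above the filter level, all were lower in stb3-null, and the dimmest of them was higher in wild type, by 0.15.

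**Figure D3:**
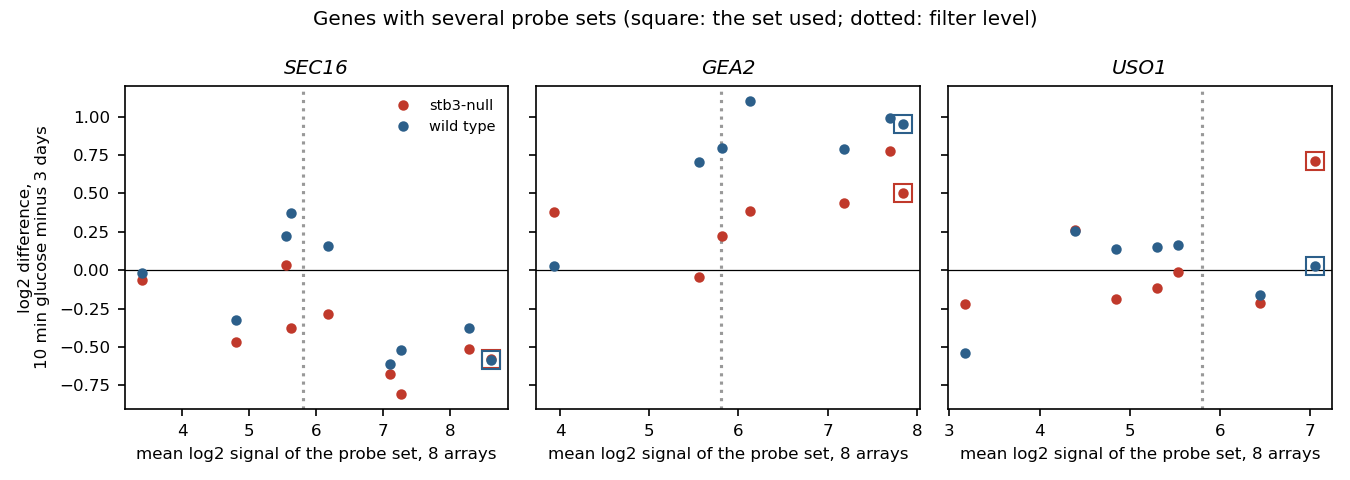
Log2 difference (10 min glucose minus 3 days) against mean log2 signal for each probe set of SEC16 (9), GEA2 (7) and USO1 (7), in stb3-null (red) and wild type (blue). Squares mark the set used, the dotted line the filter level of 5.80; 8 of the SEC16 sets lie below 0 in stb3-null and 6 in wild type, 6 of the GEA2 sets lie above 0 in stb3-null and 7 in wild type, and the USO1 sets lie on both sides of 0.

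The 3 cargo adaptors of the inner coat were SEC24 and its relatives SFB2 and SFB3. SEC24 had 9.44 and 9.85 in stb3-null after glucose, against 9.53 and 9.15 at 3 days, and 10.04 and 9.73 on wild-type glucose arrays, against 9.35 and 8.79 at 3 days. It overlapped between groups in stb3-null (0.31, adjusted p = 0.407) and rose by 0.82 in wild type (adjusted p = 0.0346). SFB2 had 8.3 and 8.21 in stb3-null after glucose, against 6.82 and 6.9 at 3 days, and 8.08 and 8.31 on wild-type glucose arrays, against 7.11 and 7.44 at 3 days. SFB2 rose in both, by 1.40 in stb3-null (adjusted p = 7.87e-04, 2.63-fold) and by 0.92 in wild type (adjusted p = 0.00373). SFB3 had 10.2 and 10.21 in stb3-null after glucose, against 10.15 and 9.81 at 3 days, and 10.39 and 10.46 on wild-type glucose arrays, against 9.68 and 10.14 at 3 days. The differences of SFB3, 0.23 in stb3-null and 0.52 in wild type, did not pass (adjusted p = 0.496 and 0.113).

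Among 10 genes for tethers, SNAREs and fusion factors between ER and Golgi, 2 rose in stb3-null and 4 in wild type, and none fell. These counts are near the shares among all genes (28% in stb3-null and 32.3% in wild type). YPT1, for the Rab GTPase of this step, rose by 1.18 in stb3-null and 0.91 in wild type, and SEC18, for the ATPase that takes spent SNARE complexes apart, by 0.83 in stb3-null and 0.99 in wild type. The wild-type rise of YPT1 passed in 10 of 19 other settings, with values down to 0.07. The Golgi SNARE gene SED5 was at 0.73 in stb3-null (adjusted p = 0.0594) and rose by 1.10 in wild type, and BET1, for a vesicle SNARE, was at 0.75 in stb3-null (adjusted p = 0.0507) and rose by 0.89 in wild type. The SNARE genes BOS1 and SEC22 were at 0.42 and 0.33 in stb3-null and 0.44 in both cases in wild type, without passing. SEC17, whose product works with Sec18, and the retrograde genes SEC20 and SEC39 lay between -0.45 and -0.05 in stb3-null and between -0.23 and 0.15 in wild type, without passing. USO1, for the long tether, had the widest replicates of all members in wild type, with 6.32 and 7.89 after glucose, and its differences of 0.71 in stb3-null and 0.03 in wild type did not pass.

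Of the 7 COPI coat genes, none passed in stb3-null (median 0.11, range -0.24 to 0.49), where 28% of all genes rose. In wild type 3 of the 7 rose (median 0.52), beside 32.3% of all genes. SEC26, for the beta subunit, had 9.05 and 9.18 in stb3-null after glucose, against 8.81 and 9.21 at 3 days. Wild type had 9.88 and 9.23 after glucose, against 8.95 and 8.04 at 3 days. The difference was 0.11 in stb3-null (adjusted p = 0.82), where the groups overlapped, and SEC26 rose by 1.06 in wild type (SE 0.33, adjusted p = 0.0244). RET2 (delta) rose in wild type by 0.68 and RET3 (zeta) by 0.60. RET3 passed in 5 of 19 other settings and SEC26 in 14. COP1 (alpha), SEC27 (beta prime), SEC21 (gamma) and SEC28 (epsilon) lay between -0.09 and 0.52 in wild type without passing.

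The largest rise among all members was that of ARF1, for the GTPase that recruits COPI and other coats at the Golgi. Its signals were 13.59 and 13.53 in stb3-null after glucose, against 11.72 and 11.36 at 3 days. In wild type they were 13.59 and 13.71 after glucose, against 11.25 and 11.46 at 3 days. ARF1 rose by 2.02 in stb3-null (SE 0.26, adjusted p = 4.84e-04, 4.06-fold) and by 2.29 in wild type (SE 0.26, adjusted p = 1.12e-04, 4.91-fold), and it stayed called in both under all 19 other settings. ARF2, for the closely related GTPase, had 12.96 and 12.63 in stb3-null after glucose, against 11.74 and 11.47 at 3 days, and 12.66 and 12.22 on wild-type glucose arrays, against 11.37 and 12.24 at 3 days. It rose by 1.19 in stb3-null (adjusted p = 0.0209), while its wild-type groups overlapped (0.64, adjusted p = 0.145).

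Of the related Arf exchange factors GEA1 and GEA2, GEA2 passed in wild type. GEA1 had 7.68 and 7.58 in stb3-null after glucose, against 7.59 and 7.04 at 3 days, and 7.4 and 7.95 on wild-type glucose arrays, against 7 and 7.28 at 3 days. Its differences of 0.32 in stb3-null and 0.54 in wild type did not pass (adjusted p = 0.349 and 0.109). GEA2 had 8.14 and 8.5 in stb3-null after glucose, against 7.87 and 7.76 at 3 days, and 8.01 and 8.18 on wild-type glucose arrays, against 7.24 and 7.05 at 3 days. It was at 0.51 in stb3-null (adjusted p = 0.07) and rose by 0.95 in wild type (adjusted p = 0.00357). SEC14, for the phosphatidylinositol transfer protein of the Golgi, was at 0.49 in stb3-null (adjusted p = 0.186) and rose by 0.77 in wild type. That wild-type rise passed in 7 of 19 other settings.

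SEC7, for the third Arf exchange factor, lies next to STB3 on chromosome IV, with 1 small open reading frame listed between them. It had 9.33 and 9.55 in stb3-null after glucose, against 9.37 and 9.22 at 3 days. Wild-type arrays gave 9.99 and 9.77 after glucose, against 9.32 and 8.61 at 3 days. The groups overlapped in stb3-null (0.15, adjusted p = 0.692), and SEC7 rose in wild type by 0.92 (SE 0.27, adjusted p = 0.018). Without wild type 3 days replicate B, the low array, that rise was 0.56 (adjusted p = 0.101). Between strains (stb3-null minus wild type) it differed by -0.44 after glucose (adjusted p = 0.63) and by 0.33 at 3 days (adjusted p = 0.765), neither passing.

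Of the 9 tested exocytosis genes, 2 rose and 1 fell in stb3-null, and 3 rose and 0 fell in wild type. Their rises are near the shares among all genes, of which 28% rose and 11.6% fell in stb3-null. In wild type 32.3% of all genes rose and 17.6% fell. SEC4, for the Rab GTPase of secretory vesicles, rose by 1.39 in stb3-null (adjusted p = 0.0047) and 1.04 in wild type (adjusted p = 0.0125). The exocyst gene SEC5 rose by 0.68 in stb3-null and 0.62 in wild type, and SEC3, whose product marks sites of exocytosis, was at 0.55 in stb3-null (adjusted p = 0.0699) and rose by 0.78 in wild type. The wild-type rise of SEC5 passed in 5 of 19 other settings. SEC15, for the exocyst subunit that binds Sec4, went the other way. It had 7.6 and 7.54 in stb3-null after glucose, against 8.13 and 8.25 at 3 days, and 7.45 and 7.35 on wild-type glucose arrays, against 7.8 and 7.63 at 3 days. It fell by 0.62 in stb3-null (SE 0.18, adjusted p = 0.0218), and the wild-type difference of -0.32, with groups that did not overlap either, did not pass (adjusted p = 0.167).

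The exocyst genes had no common direction in these values. SEC6 was at -0.44 in stb3-null and -0.53 in wild type, SEC8 at 0.36 in stb3-null and 0.17 in wild type, and SEC10 at 0.55 in stb3-null and 0.47 in wild type, none passing. SEC1, for the protein that binds assembled SNAREs at the plasma membrane, was at -0.07 in stb3-null and 0.36 in wild type, and SEC9, for a SNARE there, at 0.23 in stb3-null and -0.25 in wild type. SEC2, untested, had 5.37 and 5.45 in stb3-null after glucose, against 5.84 and 5.86 at 3 days, and 5.32 and 5.19 on wild-type glucose arrays, against 5.94 and 5.74 at 3 days. It lay just under the filter, at 5.61 on the log2 scale of its mean signal. SEC63, the lowest member above the filter, lay at 6.53, through its glucose arrays.

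Whether a role median was above 0 depended on the scaling, since a scaling moves nearly all genes together. SRP and the translocon kept positive medians as deposited and with quantile normalization, median centring and a common trimmed mean, from 0.40 to 0.90 and from 0.74 to 1.24 in stb3-null, and from 0.94 to 1.43 and from 0.70 to 1.19 in wild type. With the common trimmed mean, the role medians below 0 in stb3-null were those of ER enzyme (-0.11), COPII (-0.19), COPI (-0.39) and exocytosis genes (-0.14), while that of Arf genes was at 0.00. In wild type they were those of tether and SNARE (-0.05) and exocytosis genes (-0.12). The COPI median in stb3-null was also -0.15 with quantile normalization and 0 with median centring. These signs say nothing about the roles themselves: relative to the median of all genes, the COPI median in stb3-null was -0.15 and the COPII median in wild type 0.36, both as deposited and with the common trimmed mean.

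Related genes were compared within each array, where scaling by a constant cancels, for 6 pairs. ARF1 minus ARF2 was 0.63 to 1.49 on the 4 glucose arrays, against -0.78 to -0.02 on the 4 arrays at 3 days. The groups did not overlap, and the pair shifted by 1.25 (0.83 in stb3-null and 1.66 in wild type) with an exact two-sided permutation p of 0.0286, the smallest that 4 against 4 arrays allow. Adjusted over the 6 pairs it was 0.171, so it did not pass, and at this size a pair can pass only if at least 4 of the 6 reach that smallest p. SEC24 minus SFB2 shifted by -0.60 (exact permutation p = 0.171), SEC61 minus SSH1 by -0.51 (0.286), GEA1 minus GEA2 by -0.30 (0.286), SEC24 minus SFB3 by 0.19 (0.629) and SBH1 minus SBH2 by 0.17 (0.771). In these other pairs the arrays with and without glucose overlapped.

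**Figure D4:**
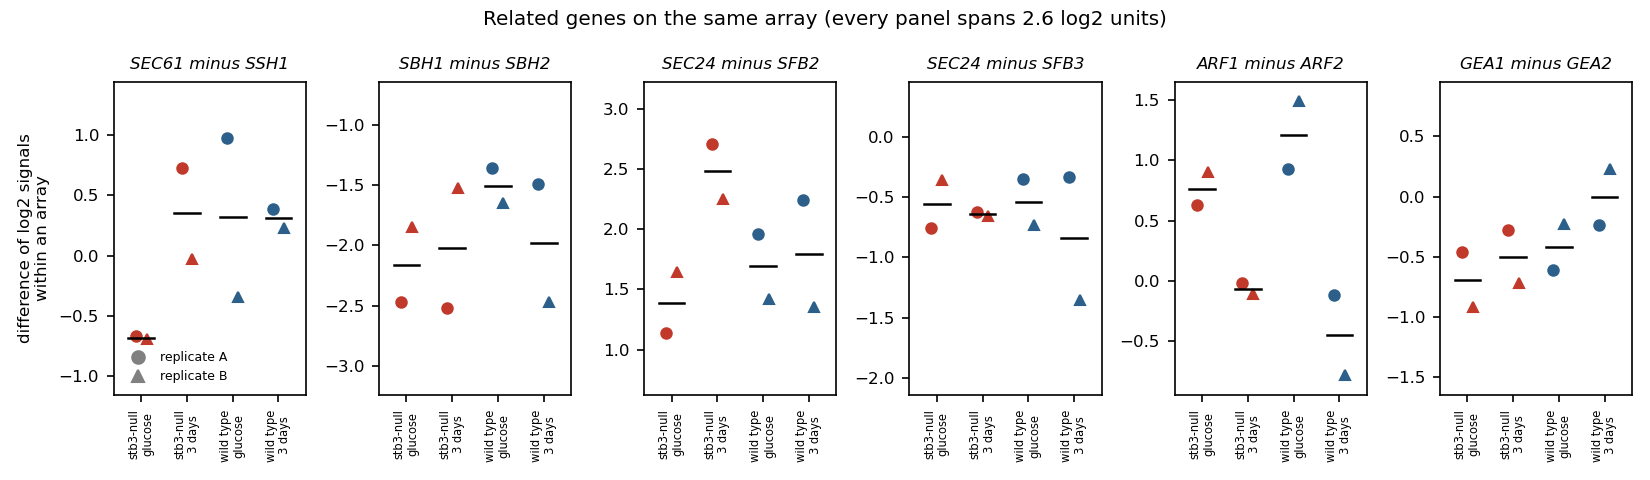
Difference of log2 signals between related genes on the same array (circle: replicate A, triangle: replicate B, line: mean of 2) in the 4 groups, for 6 pairs. The difference is comparable between groups, not between pairs; only ARF1 minus ARF2 has all glucose arrays, from 0.63, above all arrays at 3 days, up to -0.02.

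No member passed the test between strains at either time. At 3 days limma called 0 of 61 members, where 0.0374% of all genes were called, and 4 members had an unadjusted p below 0.05 (8.72% of all genes did). They were GEA2 at 0.67 (adjusted p = 0.435), the SRP receptor beta subunit gene at 0.60 (adjusted p = 0.449), SEC15 at 0.48 (adjusted p = 0.482) and SEC72 at -0.47 (adjusted p = 0.54), all as stb3-null minus wild type. After glucose limma called 0 of 61, beside 0.0187% of all genes, and SEC61 alone had an unadjusted p below 0.05, at -0.55 (adjusted p = 0.482; 9.66% of all genes did). Largest by role after glucose were SEC65 at -0.38, SEC12 at -0.49, SEC20 at -0.35, SEC26 and SEC7 at -0.44 each, SEC5 at 0.41 and SEC53 at -0.09, all with adjusted p of 0.52 or more. At 3 days the largest of the remaining roles were SEC59 at 0.45, SEC31 at 0.47, USO1 at -0.43 and SEC28 at 0.52.

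No member passed the test of a difference between the glucose responses either. In the interaction test 0 of 61 were called (0% of all genes), and 0 members had an unadjusted p below 0.05, beside 6.92% of all genes. The signed response was smaller in stb3-null for 42 members (68.9%), beside 48.3% of all genes, with a median difference of -0.22 beside 0.02. All 8 SRP genes and all 7 COPI genes were among these 42. Members share arrays, so these signs are not independent. By medians, the strains lay apart at 3 days more than after glucose. Stb3-null minus wild type was 0.335 for SRP, 0.235 for COPI and 0.135 for all 61 members at 3 days (0.03 over all genes). After glucose it was -0.045, -0.025 and 0.015 (0.035 over all genes). Without stb3-null 3 days replicate A the median difference between responses was -0.095, beside 0.075 over all genes. The largest differences by role were SEC26 at -0.96 (SE 0.47, adjusted p = 0.728), SEC7 at -0.77 (SE 0.38, adjusted p = 0.728), SEC65 at -0.69, SEC12 at -0.64, USO1 at 0.68, SEC61 at -0.52, SEC9 at 0.48 and SEC59 at -0.37. With SE of this size, differences between responses of about these sizes were not detectable for single genes. Across the 61 members the responses in stb3-null and wild type, which share no arrays, had a Pearson r of 0.838, given as a description, and across all 5343 genes 0.924.

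**Figure D5:**
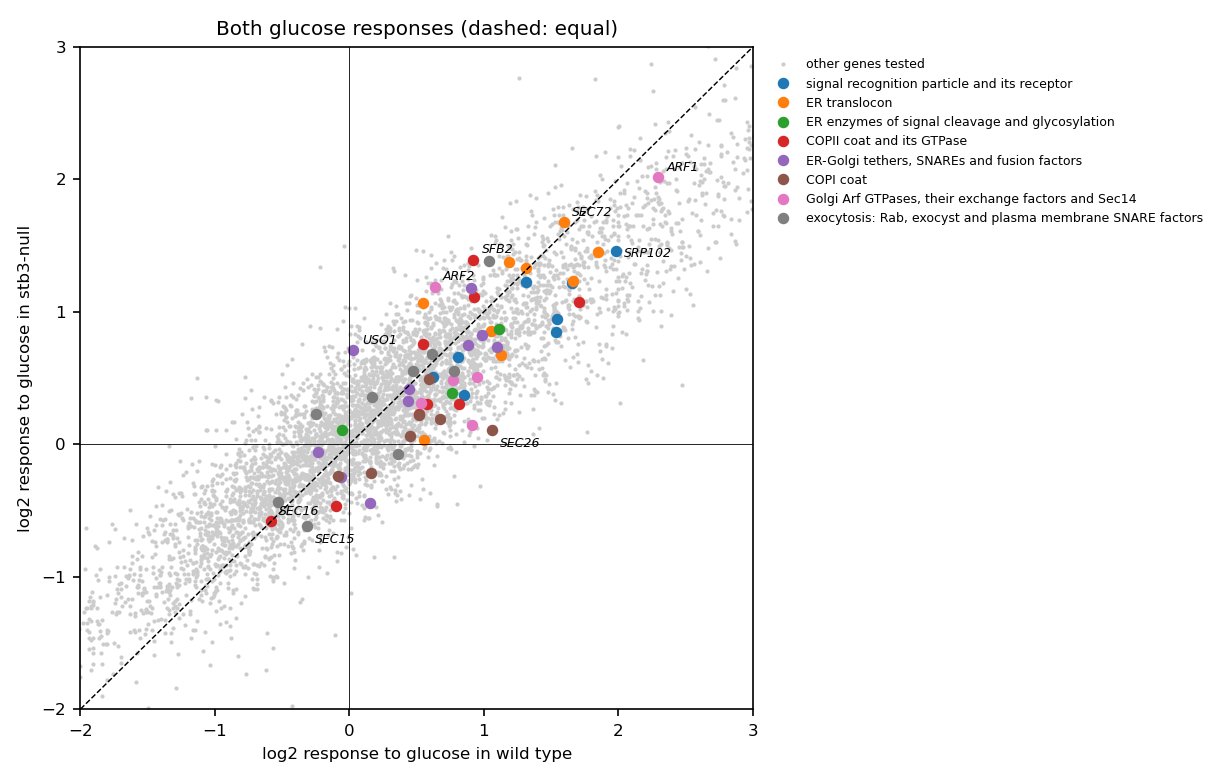
Log2 response to glucose in stb3-null (vertical) against wild type (horizontal) for the 61 members, coloured by role, over the other genes tested (grey, cut off outside -2 to 3); the dashed line marks equal responses. Of the 61 members 42 lie below the line, SEC26 farthest at 0.11 in stb3-null and 1.06 in wild type, and ARF1 lies at the upper right.

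A further 110 genes of the same pathway, outside the rule, gave the setting. In stb3-null 41 rose and 7 fell (median 0.54), and in wild type 47 rose and 6 fell (median 0.59). Among all genes 28% rose and 11.6% fell in stb3-null (median 0.26), and 32.3% rose and 17.6% fell in wild type (median 0.22). The counts of the single lists below are small, and nothing is read from them beyond the genes named. Of 9 oligosaccharyltransferase genes, which attach N-glycans in the ER, 5 rose in each strain, led by OST4 at 1.73 in stb3-null and 1.35 in wild type. Of 3 other signal peptidase genes, SPC2 rose by 1.18 in stb3-null and 1.21 in wild type. Of 15 genes for dolichol-linked sugars, 3 rose in stb3-null, led by PSA1 at 1.68, and 6 rose in wild type, led by ALG5 at 1.83, while ALG6 fell there by 0.63. Of 6 O-mannosyltransferase genes, PMT4 rose by 0.73 in stb3-null, and in wild type 3 rose, led by PMT2 at 1.58, and PMT3 fell by 0.53. Of 12 ER folding genes, 4 rose in stb3-null and 5 in wild type, led by the co-chaperone gene SCJ1 at 1.35 in stb3-null and 1.71 in wild type, and MPD1 fell by 1.38 in stb3-null.

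Of 18 genes for p24 proteins and cargo receptors, 9 rose in stb3-null and 7 in wild type, led by the cargo receptor gene ERV14 at 1.43 in stb3-null and 1.18 in wild type, while EMP46 fell, at -1.42 in stb3-null and -2.12 in wild type. Of 10 TRAPP tether genes, 6 rose in stb3-null and 5 in wild type, led by TRS33 at 1.59 in stb3-null and 1.56 in wild type, and TRS23 fell, at -0.66 in stb3-null and -1.05 in wild type. Of 8 COG tether genes, COG6 rose in stb3-null by 0.69, 2 rose in wild type, led by COG2 at 1.15, and COG5 fell, at -1.14 in stb3-null and -1.33 in wild type. Of 13 Golgi mannosyltransferase genes, 6 rose in stb3-null and 9 in wild type, led by MNN11 at 1.74 in stb3-null and 2.15 in wild type, and none fell. Of 8 other exocytosis genes, 4 rose in stb3-null, led by EXO70 at 0.92, and 3 in wild type, led by YPT31 at 1.09. Of 8 genes for clathrin and its Golgi adaptors, 1 rose and 3 fell in stb3-null, and 1 rose and 1 fell in wild type. APS1 rose by 0.83 in stb3-null and GGA2 by 0.74 in wild type, and GGA1 fell in both, at -2.02 in stb3-null and -2.46 in wild type.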

How the data were processed

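Total RNA of 8 yeast preparations was hybridised to 1 Affymetrix array each. The authors deposited log2 signals, one for each of 9275 probe sets on every array. That the logs are base 2 rests on their range, and the submitters' processing notes name MAS5 with no version or role. The sources used here do not give the normalization between arrays, and no further scaling was applied. Array medians lay between 7.53 and 7.69. The 2% trimmed means of antilog signals differed by treatment, at 436.9 to 503.6 on the arrays at 3 days and 625.5 to 673 on the glucose arrays. Groups came from sample titles. Probe sets were named by the platform annotation: 6504 carried 1 gene, 328 several and 2443 none listed there. A gene was tested if its mean antilog signal reached 10% of the mean 2% trimmed mean (log2 5.80), which left 5343 of 5656.

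Fits used limma 3.58.1 in R 4.3.3 with 4 group means, all 8 arrays and a variance trend (4 residual and 5.56 prior degrees of freedom), checked on simulated data. P-values are two-sided. Related genes were compared by exact permutation tests over arrays, strains pooled.

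The members and lists were chosen with earlier results of these data known. Each role's largest called rise and fall is named, or its largest difference where none was called, and values per array are given for the largest changes, SEC7 and related genes. Other members are named to account for all. A planned motif search was not run, since promoter sequences were not used here.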

Additional observations from a re-analysis of the deposited data

Results flagged for a closer look

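In 2 members both glucose arrays moved to opposite sides of both arrays at 3 days in the 2 strains. How many of all genes did so was not counted, so nothing is read from this number. Some gaps were small: the nearest arrays were 6.9 and 6.91 for SEC1 in stb3-null, and 9.17 and 9.22 for SEC9 in wild type. SEC1 was lower after glucose in stb3-null (6.9 and 6.88, against 7.01 and 6.91 at 3 days) and higher in wild type (6.92 and 7.14, against 6.64 and 6.7 at 3 days). Its difference between responses was -0.43 and did not pass limma's interaction test (adjusted p = 0.778). SEC9 was higher after glucose in stb3-null (9.47 and 9.21, against 9.1 and 9.12 at 3 days) and lower in wild type (9.02 and 9.17, against 9.47 and 9.22 at 3 days). Its difference was 0.48 (adjusted p = 0.79).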

How the results depend on the processing

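Of 87 single-gene results recomputed under up to 19 other settings, 1394 of 1630 values kept direction and side of the threshold, 234 no longer passed, 2 newly passed (RET3 in stb3-null), and none changed sign while called. The 1630 include results not called to begin with, which keep their side easily. Of the called rises, 6 of 22 in stb3-null and 12 of 35 in wild type stayed called in every setting that tested them. All 112 recomputed counts of members in the strain and interaction comparisons were 0. All counts of unequal pairs were 0 too, but a pair can pass only if at least 4 of the 6 reach the smallest p. Nothing is therefore read from the counts of pairs. In stb3-null, members higher numbered 14 with quantile normalization, 9 with a common trimmed mean, 35 with array weights and 34 with only the groups compared (against 22), and 8 to 26 with an array left out. Members lower in stb3-null (against 2) numbered 8 with a common trimmed mean, 1 with no filter, the filter at 40%, the mean of all probe sets, no variance trend or the replicate block, 4 with array weights and with only the groups compared, and 0 to 2 with an array left out. In wild type, members higher numbered 20 with quantile normalization, 14 with a common trimmed mean, 21 with array weights and 19 with only the groups compared (against 35). Members lower in wild type (against 1) numbered 7 with a common trimmed mean and 0 with the mean of all probe sets, array weights, the replicate block, and only the groups compared, and 0 to 1 with an array left out, where members higher ran from 25 to 29. The cause of these shifts was not tested. Shares of all genes under these settings are not given, so the counts do not compare members with other genes. Replicate letters were not treated as pairs: the correlation of A minus B between groups ran from -0.18 to 0.22. With the replicate block, 24 members rose in stb3-null and 32 in wild type. An array left out leaves a lone sample, assumed to vary like the other groups. With 2 arrays per group, signals near the 5.80 level (SEC63, SEC2) are least certain.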
